A study of Homo sapiens with 6 samples.

Results

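The genes described here copy DNA. They are 52 genes of DNA replication and S phase, taken from a fixed list of symbols, and all 52 were found among the 19775 genes of the array. Each gene was read from the probe set that carries no other gene symbol and has the highest mean over the arrays. The study compared MDA-MB-231 cells in which a stably expressed hairpin RNA targets ATAD3A (shATAD3A, 3 arrays) with MDA-MB-231 cells whose hairpin targets GFP (shGFP, 3 arrays), to find transcripts that differ with and without ATAD3A. MDA-MB-231 is an invasive human breast cancer line, and ATAD3A is an ATPase of the mitochondrial inner membrane. Both groups were infected with pLKO.1 lentiviral vectors, kept in 1.0 µg/ml puromycin for 2 weeks and profiled at passage 2 on Affymetrix U133 Plus 2.0 arrays. The sources used here give neither the hairpin sequences nor whether the populations were clonal. Nothing in the labels tells separate cultures from repeats of 1 culture, so p-values measure only array-to-array spread, possibly technical, and 3 arrays a group limit the precision.

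Replication starts from origins that are licensed in G1. The origin recognition complex, CDC6 and CDT1 load the MCM helicase, and geminin (GMNN) holds CDT1 back so that no origin is loaded again. In S phase CDC7 with DBF4 switches loaded helicases on, CDC45 and GINS join them, and polymerases alpha, delta and epsilon copy the strands with the clamp PCNA, its loader RFC and the single-strand binding protein RPA. Many of these genes are known targets of E2F factors, which cyclin E and its kinase help to release, and breast cancer cells that divide quickly express them strongly.

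All 52 genes lay above the low mode of the values, which ends at 4.70 on the log2 scale and holds genes with little signal. Of these 52 genes, 24 were higher and 7 lower in shATAD3A cells, and 21 did not pass (limma, Benjamini-Hochberg adjusted p under 0.05). Over all 19775 genes 33.6% passed, 19.7% higher and 13.9% lower. Set beside the 10245 genes above the low mode, of which 61.8% passed, the members' 59.6% is not a larger share. The members leaned more to one side: 46.2% were higher and 13.5% lower, against 36.4% and 25.4% of genes above the low mode. Their median change was 0.16 on the log2 scale, against 0.065 for genes above the low mode and -0.00084 for all genes. The changes were small, with 8 members up by at least 1.5-fold, 1 down by as much, and only CCNE1 and POLE up by at least 2-fold. Among the 10245 genes above the low mode 1413 passed and were up by at least 1.5-fold, and 1062 were down by as much. Passing changes of at least 2-fold in either direction made up 9.87% of those genes and 3.85% of the members. Groups without overlap were common, with 27 of the 52 members wholly higher in shATAD3A arrays and 7 wholly lower. The same held for 4323 and 3031 of the 10245 genes above the low mode, and for 24.4% and 17.6% of all genes. In bulk RNA a larger share of cells in S phase and more RNA per cell cannot be told apart.

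**Figure D1:**
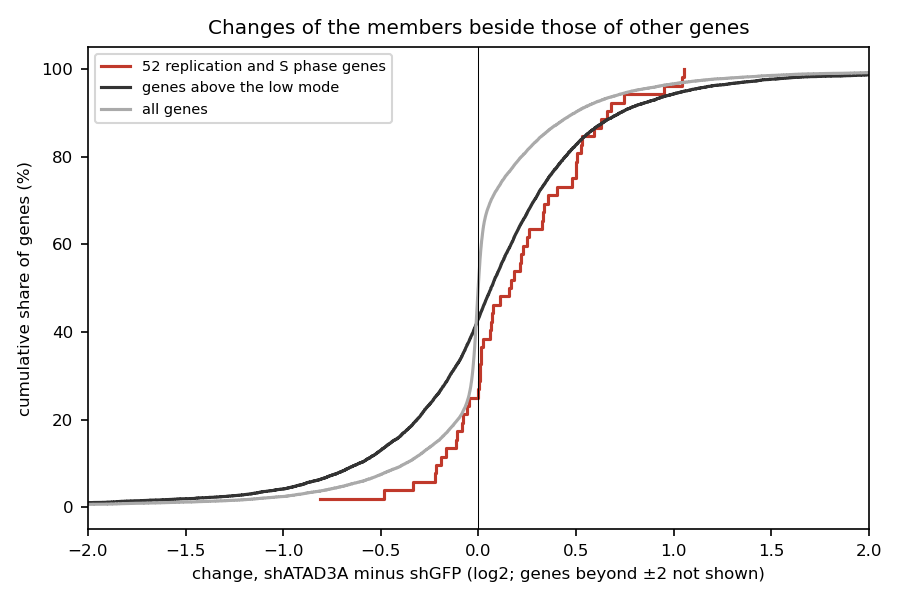
Cumulative share of genes (vertical axis, percent) against the change, shATAD3A minus shGFP (horizontal axis, log2), for the 52 members, for genes above the low mode and for all genes. The members' curve has its median at 0.16, against 0.065 for genes above the low mode, and runs from -0.81 to 1.06.

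ATAD3A itself read 7.41, 7.03 and 7.39 in the shATAD3A arrays and 7.73, 7.78 and 7.80 in the shGFP arrays, with limma giving -0.49 ± 0.11 (SE; adjusted p = 0.0129), so the targeted transcript was 29.0% lower. Its probe set is of the x_at type, whose probes may also match related transcripts. The line's mesenchymal markers VIM, CD44, EGFR, AXL and CAV1 were above the low mode and SPARC was not, while the hormone receptors ESR1 and PGR were in the low mode. ERBB2 was above it, and 0.51 higher in shATAD3A cells. Of the markers of other cell types, 1 of 6 for fibroblasts (COL1A1), 0 of 4 for leukocytes and 1 of 4 for endothelium (PECAM1) lay above the low mode. The line's own mesenchymal markers summed to 72.3 to 72.5 in shATAD3A arrays, against 73.2 to 73.3 in shGFP arrays, with CD44, AXL and CAV1 lower. The fibroblast markers summed to 24.1 to 24.7 in shATAD3A arrays, against 22.5 to 23.0 in shGFP arrays, a shift carried by COL1A1 (1.01) and LUM (0.55, in the low mode). The leukocyte markers summed to 11.0 to 11.4 in shATAD3A arrays, against 12.7 to 13.4 in shGFP arrays, mostly through CD14 (-1.60, in the low mode), and the endothelial markers to 12.4 to 13.6 in shATAD3A arrays, against 14.5 to 15.2 in shGFP arrays, through PECAM1 (-1.27) and KDR (-0.44, in the low mode). The part of these shifts in the results below was not tested.

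The promoters of 6 members are shown because such genes are known as E2F targets, and these 6 cover members of different roles that rose or fell. The windows are the 250 bases before each annotated start in RefSeq (GRCh38.p14), read 5′ to 3′ on the gene's strand, and capitals mark an E2F-type word. They lie at chr16:88803539-88803788 on the plus strand (CDT1), chr12:132687343-132687592 on the minus strand (POLE), chr19:29811741-29811990 on the plus strand (CCNE1), chr19:4402390-4402639 on the plus strand (CHAF1A), chr18:657403-657652 on the plus strand (TYMS) and chr6:24774687-24774936 on the plus strand (GMNN). The first 4 genes rose and the last 2 fell.
CDT1: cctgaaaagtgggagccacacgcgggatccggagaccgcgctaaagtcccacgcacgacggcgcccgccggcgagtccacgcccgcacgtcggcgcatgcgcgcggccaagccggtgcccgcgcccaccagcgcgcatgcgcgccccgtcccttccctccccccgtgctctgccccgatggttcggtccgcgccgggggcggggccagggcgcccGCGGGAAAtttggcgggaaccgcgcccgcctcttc
POLE: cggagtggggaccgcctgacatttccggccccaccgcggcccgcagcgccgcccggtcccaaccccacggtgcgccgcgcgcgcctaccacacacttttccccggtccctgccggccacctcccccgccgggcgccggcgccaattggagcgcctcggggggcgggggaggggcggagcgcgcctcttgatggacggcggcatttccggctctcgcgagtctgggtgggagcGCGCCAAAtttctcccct
CCNE1: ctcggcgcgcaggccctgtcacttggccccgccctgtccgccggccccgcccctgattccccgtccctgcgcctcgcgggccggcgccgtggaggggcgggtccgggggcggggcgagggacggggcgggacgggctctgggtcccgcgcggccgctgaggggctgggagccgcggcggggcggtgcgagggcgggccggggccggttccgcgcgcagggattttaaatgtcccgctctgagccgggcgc
CHAF1A: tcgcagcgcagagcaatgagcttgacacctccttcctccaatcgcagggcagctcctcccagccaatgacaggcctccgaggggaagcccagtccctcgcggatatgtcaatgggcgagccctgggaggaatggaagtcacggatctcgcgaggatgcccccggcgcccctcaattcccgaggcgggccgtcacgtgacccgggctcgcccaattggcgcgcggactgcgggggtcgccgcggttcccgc
TYMS: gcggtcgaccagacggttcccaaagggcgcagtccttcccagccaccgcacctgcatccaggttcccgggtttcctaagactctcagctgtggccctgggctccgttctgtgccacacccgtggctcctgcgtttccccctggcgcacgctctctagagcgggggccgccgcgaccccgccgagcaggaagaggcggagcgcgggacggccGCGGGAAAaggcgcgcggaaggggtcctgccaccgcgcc
GMNN: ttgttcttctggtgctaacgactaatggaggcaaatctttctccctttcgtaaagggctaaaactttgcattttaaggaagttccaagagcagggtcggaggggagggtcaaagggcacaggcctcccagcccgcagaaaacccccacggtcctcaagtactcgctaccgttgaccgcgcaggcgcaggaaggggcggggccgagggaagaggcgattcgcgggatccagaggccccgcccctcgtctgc

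The words searched were TTTGGCGC, TTTCCCGC, TTTCGCGC and TTTGCCGC on either strand, in windows from 250 bases before to 50 after the start, using the first window listed for a gene. TTTGGCGC and TTTCGCGC overlap where they face each other, as in MCM6. A window was found for 45 of the 52 members, and 21 of these held a word (46.7%), against 3.33% of all 27305 promoters and 5.68% of measured genes above the low mode. CDT1 and TYMS carry the same word, GCGGGAAA, which began 35 and 39 bases before the start, and POLE carries GCGCCAAA 18 bases before it. A word was present in 10 of 21 members that rose, 3 of 6 that fell and 8 of 18 that did not pass, so its presence did not separate these groups. Among all genes above the low mode 35.3% of those with a word were higher and 25.4% lower, beside 37.1% and 24.6% of those without. A match in letters is a description and shows no binding.

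Among the licensing and origin genes 9 of 19 rose, 4 fell and 6 did not pass, with a median change of 0.21. The share that passed, 68.4%, stands beside 61.8% of genes above the low mode, and no difference between roles was tested. CDT1, which loads the helicase, read 8.94, 8.92 and 9.11 in shATAD3A arrays, against 8.23, 8.21 and 8.29 in shGFP arrays. Every shATAD3A array lay above every shGFP array, and the change was 0.75 ± 0.057 (SE; limma adjusted p = 0.000168), or 1.68-fold. GMNN, the inhibitor of CDT1, went the other way, at 12.88, 12.75 and 12.72 in shATAD3A arrays and 13.11, 13.13 and 13.10 in shGFP arrays (change -0.34 ± 0.047, SE; adjusted p = 0.00213). CDC45, which completes the active helicase, read 9.01, 9.31 and 9.11 in shATAD3A arrays and 8.52, 8.50 and 8.44 in shGFP arrays, a change of 0.66 ± 0.079 (SE; adjusted p = 0.00107).

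The GINS complex, the other helicase cofactor, split evenly. GINS2 read 9.98, 10.09 and 10.05 in shATAD3A arrays and 9.69, 9.65 and 9.76 in shGFP arrays, and GINS3 read 8.92, 8.92 and 8.76 against 8.34, 8.50 and 8.54 in shGFP arrays. Both rose, by 0.34 ± 0.045 and 0.41 ± 0.071 (SE). GINS1 read 11.55, 11.45 and 11.51 in shATAD3A arrays and 11.75, 11.64 and 11.79 in shGFP arrays, and fell by 0.22 on the log2 scale. GINS4 had the largest fall of all 52 genes, at 6.61, 7.24 and 7.16 in shATAD3A arrays and 7.91, 7.75 and 7.78 in shGFP arrays (change -0.81 ± 0.17, SE; limma adjusted p = 0.012). The first shATAD3A array was well below the other two, which gave GINS4 the widest spread of any member (SD 0.345, n = 3), although the groups did not overlap.

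On their kept probe sets the 6 subunits of the MCM ring changed by -0.21 to 0.23, with 1 higher, 1 lower and 4 that did not pass. Of genes above the low mode 61.8% passed. A further probe set of MCM6 gave 0.44 and 1 of MCM4 gave 0.12, and both passed upward in the fit over probe sets. Others of MCM4 above the low mode gave 0.11 and -0.027 and did not pass. MCM7 read 10.69, 10.82 and 10.72 in shATAD3A arrays and 10.81, 10.74 and 10.66 in shGFP arrays, a change of 0.0014 with a 95% interval of -0.13 to 0.13. MCM4 changed by 0.068 (-0.059 to 0.19), MCM6 by 0.076 and MCM2 by 0.22 (limma adjusted p = 0.46, 0.136 and 0.0563), and none of these passed. In 6 of 18 other settings MCM2 passed upward. MCM5 rose by 0.23 ± 0.044 (SE; adjusted p = 0.00884), but gave 0.19 and did not pass without s_at and x_at probe sets (adjusted p = 0.0789). MCM3 fell, at 11.65, 11.73 and 11.76 in shATAD3A arrays and 11.98, 11.95 and 11.87 in shGFP arrays (change -0.21 ± 0.046, SE; adjusted p = 0.0132). That fall did not pass in 5 of 19 other settings. Upstream and beside the ring, CDC6 rose by 0.21, MCM10 by 0.25, CDC7 by 0.18 and its activator DBF4 by 0.26. The origin recognition subunits ORC1 and ORC6 gave 0.33 (95% interval 0.028 to 0.63) and 0.16 (0.029 to 0.29) and did not pass (limma adjusted p = 0.0975 and 0.0688). ORC1 passed upward in 4 of 19 other settings and ORC6 in 4 of 18, while ORC6 passed downward in 1.

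**Figure D2:**
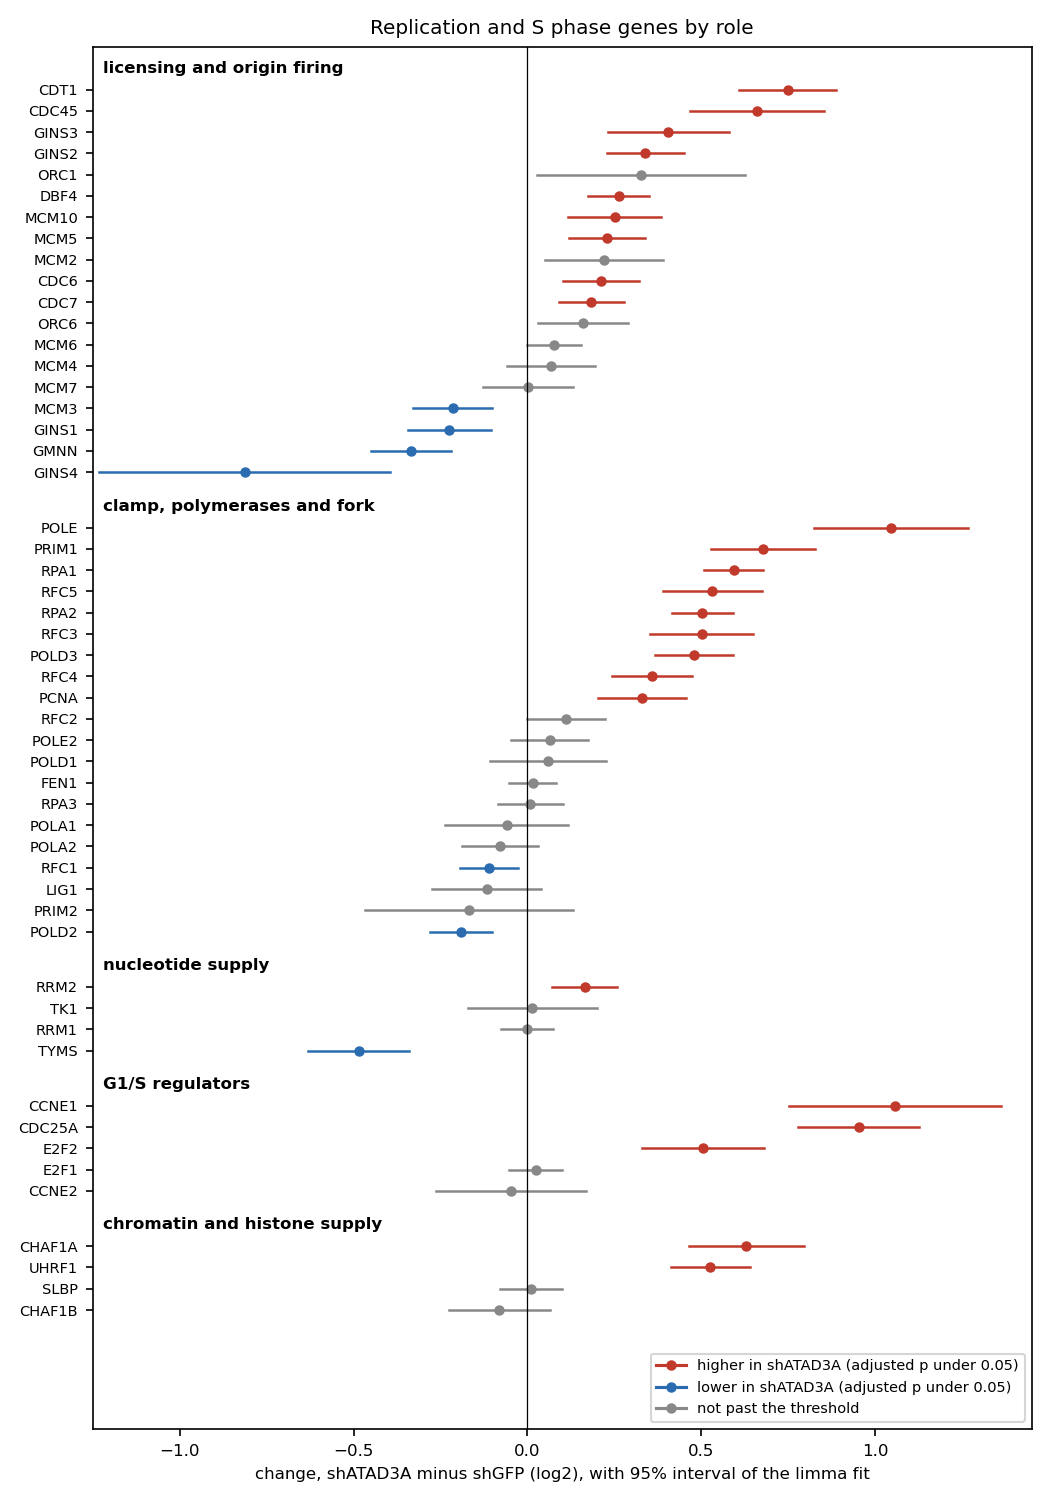
Change of each of the 52 members, shATAD3A minus shGFP (horizontal axis, log2), with its 95% interval from the limma fit, sorted within 5 roles. Red marks the 24 members that were higher, blue the 7 that were lower and grey the 21 that did not pass; POLE and CCNE1 lie farthest right at 1.05 and 1.06, and GINS4 farthest left at -0.81.

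Among the clamp, polymerases and fork genes 9 of 20 rose, 2 fell and 9 did not pass, with a median change of 0.087. The share that passed, 55%, is not larger than the 61.8% of genes above the low mode. POLE, the catalytic subunit of polymerase epsilon that copies the leading strand, read 8.20, 8.34 and 8.40 in shATAD3A arrays, against 7.37, 7.09 and 7.33 in shGFP arrays. The groups lay far apart, and limma put the rise at 1.05 ± 0.09 (SE; adjusted p = 0.000277), or 2.06-fold. Its partner POLE2 changed by 0.064 (95% interval -0.047 to 0.17; adjusted p = 0.419). PRIM1, the catalytic primase subunit, read 10.29, 10.46 and 10.46 in shATAD3A arrays and 9.80, 9.68 and 9.69 in shGFP arrays, and rose by 0.68 ± 0.061 (SE; adjusted p = 0.000336). The other subunits of polymerase alpha-primase did not pass: POLA1 changed by -0.06, POLA2 by -0.08 and PRIM2 by -0.17. Of 4 further probe sets shared between PRIM2 and PRIM2BP, 1 gave 0.31 and passed (limma adjusted p over probe sets = 0.0129), while the others gave 0.23, 0.14 and 0.020 and did not pass, so PRIM2 is uncertain.

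RPA1 and RPA2, the large and middle subunits of the single-strand binding protein, rose with little spread. RPA1 read 13.67, 13.73 and 13.69 in shATAD3A arrays and 13.15, 13.06 and 13.11 in shGFP arrays, and its change of 0.59 ± 0.035 (SE) had the smallest adjusted p of the 52 genes (6.093e-05). RPA2 rose by 0.50 ± 0.036 (SE; adjusted p = 0.000126). RPA3, the small subunit, read 12.47, 12.54 and 12.53 in shATAD3A arrays and 12.55, 12.52 and 12.45 in shGFP arrays, a change of 0.0077 with a 95% interval of -0.086 to 0.10. In the clamp loader, RFC5 read 11.30, 11.34 and 11.36 in shATAD3A arrays and 10.89, 10.68 and 10.83 in shGFP arrays and rose by 0.53 ± 0.058 (SE; adjusted p = 0.000745). RFC3 and RFC4 rose by 0.50 and 0.36, while RFC2 changed by 0.11 (limma adjusted p = 0.136). The large subunit RFC1 read 9.40, 9.46 and 9.36 in shATAD3A arrays and 9.53, 9.53 and 9.50 in shGFP arrays, a change of -0.11 that passed narrowly (adjusted p = 0.0498) and did not pass in 13 of 19 other settings, among them 5 of the 6 that leave out 1 array.

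The clamp PCNA rose by 0.33 ± 0.052 (SE; limma adjusted p = 0.00361). In polymerase delta, POLD3 rose by 0.48, POLD2 fell by 0.19 on the log2 scale, and the catalytic subunit POLD1 changed by 0.059 (adjusted p = 0.674). POLD2 read 9.77, 9.75 and 9.75 in shATAD3A arrays and 9.94, 9.89 and 10.01 in shGFP arrays, without overlap. The enzymes that finish lagging-strand fragments did not pass: the flap nuclease FEN1 read 12.88, 12.89 and 12.90 in shATAD3A arrays and 12.89, 12.85 and 12.90 in shGFP arrays, with a 95% interval of -0.052 to 0.082 for its change, and the ligase LIG1 changed by -0.12 (-0.27 to 0.039). The FEN1 interval is that of the kept probe set, and a further FEN1 probe set gave -0.14 ± 0.077 (SE; adjusted p over probe sets = 0.334).

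Nucleotide supply moved in both directions. TYMS, which makes thymidylate, read 13.64, 13.76 and 13.85 in shATAD3A arrays, against 14.23, 14.20 and 14.27 in shGFP arrays. Every shATAD3A array was lower, and the change was -0.49 ± 0.059 (SE; limma adjusted p = 0.00114), or 0.714-fold. RRM2, the small subunit of ribonucleotide reductase, read 14.36, 14.36 and 14.30 in shATAD3A arrays and 14.13, 14.16 and 14.23 in shGFP arrays, a rise of 0.17 ± 0.038 (SE; adjusted p = 0.0176). That call was lost without either shATAD3A replicate 1 or 2, and without either shGFP replicate 1 or 2 (adjusted p up to 0.0666). The large subunit RRM1 read 13.73, 13.69 and 13.68 in shATAD3A arrays and 13.69, 13.73 and 13.68 in shGFP arrays. TK1, the salvage thymidine kinase, read 10.23, 10.27 and 10.48 in shATAD3A arrays and 10.39, 10.28 and 10.27 in shGFP arrays. Neither passed, with changes of -0.0017 (95% interval -0.076 to 0.073) and 0.014 (-0.17 to 0.20).

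The G1/S regulators held 2 of the 3 largest rises. CCNE1 (cyclin E1) read 8.10, 8.51 and 8.44 in shATAD3A arrays, against 7.44, 7.16 and 7.28 in shGFP arrays, so that limma put the rise at 1.06 ± 0.12 (SE; adjusted p = 0.00101), or 2.08-fold. Its relative CCNE2 read 11.64, 11.47 and 11.69 in shATAD3A arrays and 11.49, 11.74 and 11.71 in shGFP arrays, with overlap and a change of -0.048 (95% interval -0.26 to 0.17). CDC25A, the phosphatase that activates the cyclin E kinase, read 10.23, 10.41 and 10.24 in shATAD3A arrays and 9.37, 9.42 and 9.23 in shGFP arrays, and rose by 0.95 ± 0.071 (SE; adjusted p = 0.000157). The activator E2F2 read 7.004, 7.10 and 7.21 in shATAD3A arrays and 6.71, 6.56 and 6.53 in shGFP arrays, and rose by 0.50 ± 0.071 (SE; adjusted p = 0.00219). E2F1 read 6.97, 6.90 and 6.94 in shATAD3A arrays and 6.92, 6.89 and 6.93 in shGFP arrays, a change of 0.024 that did not pass (adjusted p = 0.728).

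Of the genes that supply chromatin behind the fork, CHAF1A and UHRF1 rose. CHAF1A, the large subunit of the histone chaperone CAF-1, read 9.89, 10.07 and 10.09 in shATAD3A arrays and 9.41, 9.45 and 9.31 in shGFP arrays (change 0.63 ± 0.067, SE; limma adjusted p = 0.000674). Both of its further probe sets above the low mode rose, by 0.59 and 0.66, but all 3 are of the s_at or x_at type, and the remaining one, in the low mode, gave 0.011. CHAF1B, its partner, read 7.22, 7.39 and 7.33 in shATAD3A arrays and 7.48, 7.38 and 7.33 in shGFP arrays, with overlap and a change of -0.081 (adjusted p = 0.436). UHRF1, which helps carry DNA methylation to the new strand, read 12.63, 12.57 and 12.67 in shATAD3A arrays and 12.05, 12.07 and 12.17 in shGFP arrays, a rise of 0.53 ± 0.046 (SE; adjusted p = 0.000298). SLBP, which binds the stem loop of histone messengers, read 12.51, 12.46 and 12.54 in shATAD3A arrays and 12.52, 12.44 and 12.52 in shGFP arrays, a change of 0.0099 with a 95% interval of -0.08 to 0.10.

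**Figure D3:**
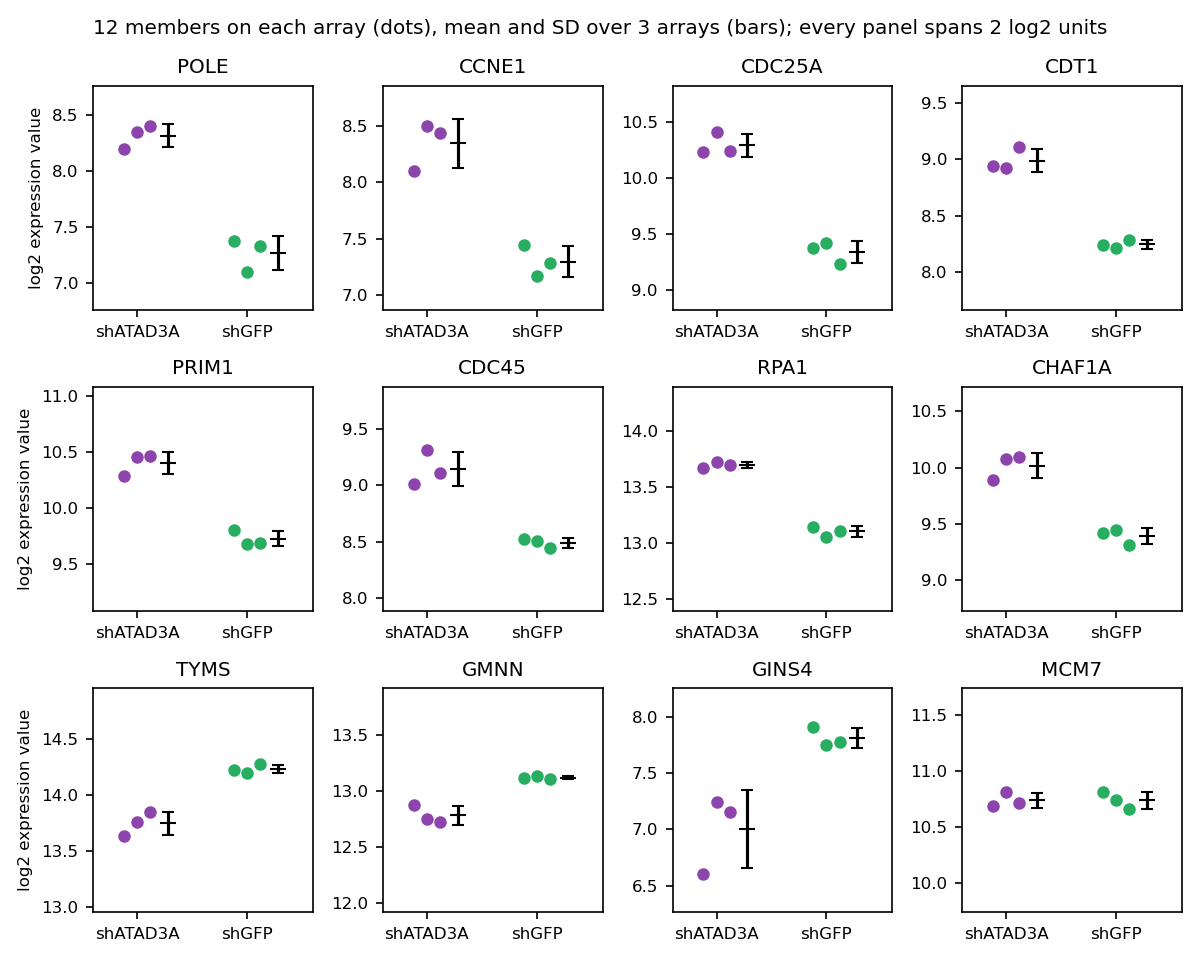
Log2 expression values (vertical axis) of 12 members on each shATAD3A array (purple) and each shGFP array (green), with mean and SD over 3 arrays; each panel spans 2 units. The groups do not overlap in POLE, CCNE1, CDC25A, CDT1, PRIM1, CDC45, RPA1 and CHAF1A, which are higher, or in TYMS, GMNN and GINS4, which are lower, and they overlap in MCM7. Of the 10245 genes above the low mode, 4323 were higher and 3031 lower without overlap.

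Partner genes were also set against each other, in 12 sets with 37 genes that hold subunits of an assembly, CDT1 with its inhibitor, or the alternative cyclins E1 and E2. The difference between partners was taken within each array and compared between groups with a two-sided exact permutation test over 49 pairs, whose smallest possible p with 3 arrays against 3 is 0.1. In 35 pairs the p was 0.1, or 0.14 after Benjamini-Hochberg adjustment, so no pair could pass and the differences are given as values. The change of POLE exceeded that of POLE2 by 0.98, that of CCNE1 exceeded CCNE2 by 1.10, that of CDT1 exceeded GMNN by 1.08 and that of GINS3 exceeded GINS4 by 1.22. The change of CHAF1A exceeded that of CHAF1B by 0.71 and that of RPA1 exceeded RPA3 by 0.59. In these pairs the array-to-array SD of the difference ranged up to 0.389, in GINS3 with GINS4. RFC5 and RFC3 differed by 0.031 and MCM5 and MCM2 by 0.0073, with exact p-values of 0.7 and 1.

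Other probe sets of the same genes gave a second reading. Of 45 further probe sets for 28 members, 29 lay above the low mode. Those of members that had passed numbered 19, of which 17 had the same sign, 12 passed the same way and 0 passed the opposite way. That limma fit covered all probe sets, dim ones included, of which 22.4% passed in either direction. Among genes above the low mode, read on their kept probe sets, 61.8% passed. CDT1 rose by 0.62 and RPA1 by 0.65 on a further probe set, GINS4 fell by 0.77 on the log2 scale and TYMS by 0.59. CDC25A gave 0.39 on a further probe set above the low mode, which did not pass (adjusted p over probe sets = 0.0562). Further probe sets of MCM5 (0.19), CDC6 (0.12) and RRM2 (0.090) did not pass either (limma adjusted p over probe sets = 0.0972, 0.11 and 0.429). RFC5 gave 0.55 on one further probe set and 0.13 on another, which did not pass (adjusted p over probe sets = 0.608). POLD3 gave -0.082 (adjusted p over probe sets = 0.934) and RPA1 -0.028 on another, dim probe set. Of 10 further probe sets of members that had not passed, 3 passed upward: MCM6 by 0.44 on a dimmer probe set, RFC2 by 0.21 and MCM4 by 0.12 (adjusted p over probe sets = 0.0144, 0.0251 and 0.0408). All further probe sets of CCNE1, E2F2 and GINS2 lay in the low mode, so those rises rest on 1 probe set each, and GINS2 gave -0.010 when s_at and x_at probe sets were left out. The rises of POLE, CDC45, DBF4, PRIM1, RPA2, UHRF1, PCNA, RFC4 and CDC7 had no second reading, since each gene had only 1 probe set. The same holds for the falls of MCM3, GINS1, GMNN and POLD2. The single probe sets of POLE, CDC45, DBF4 and GMNN are of the s_at type.

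**Figure D4:**
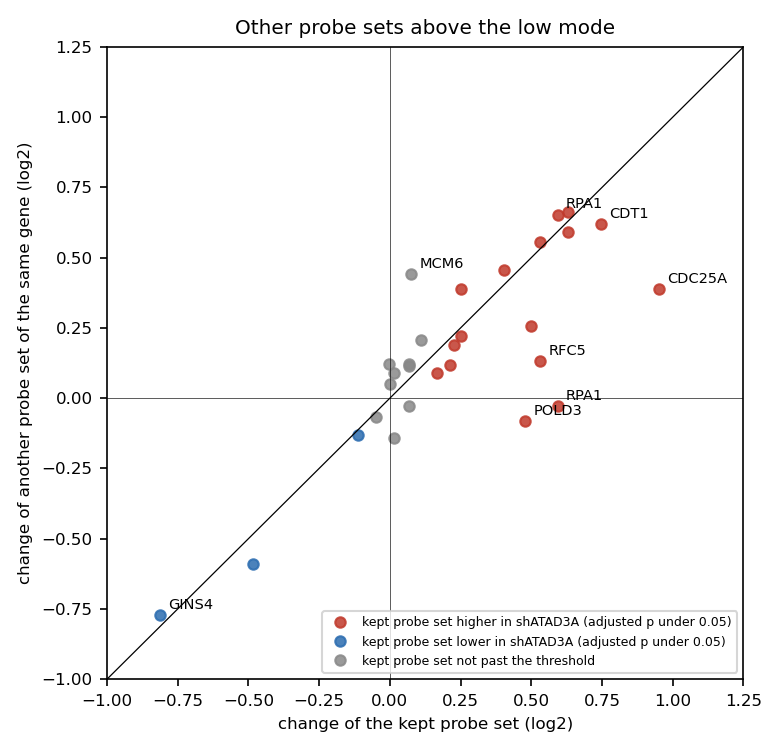
Change of each further probe set above the low mode (vertical axis, log2) against the change of the kept probe set of that gene (horizontal axis, log2); the line marks equal changes. Red, blue and grey mark members that were higher, lower or did not pass on the kept probe set; CDC25A, POLD3, 1 RFC5 and 1 RPA1 probe set lie well below the line.

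The changes of the members were set beside those of their chromosomal neighbours. Over the 25 measured genes on either side, dim genes included, the median change was above 0 for 18 of the 24 members that rose and below 0 for 4 of the 7 that fell, but small, with medians of 0.026 and -0.012, and 0.050 around PCNA and 0.086 around POLE. Subtracting it left 25 members higher, 6 lower and a median change of 0.15. Over all genes 7067 passed in that setting, against 6644 in the main fit. The neighbour median was then taken over genes above the low mode alone, a choice made after seeing the data. It was above 0 for 23 of the 24 members that rose, with a median of 0.23, and below 0 for 4 of the 7 that fell, with a median of -0.165. Over all genes above the low mode it was 0.082 in the median and above 0 for 7368 of 10236. The neighbours of PCNA stood at 0.47, above the 0.33 of PCNA itself, those of PRIM1 at 0.44, those of RPA1 at 0.43 and those of POLE at 0.43. Around GMNN, POLD2 and TYMS they stood at -0.41, -0.41 and -0.31, and around GINS4 at 0.058. Whether DNA copy number differed between the 2 cell populations was not tested.

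With the neighbour median of genes above the low mode subtracted as a fixed value, 16 of the 24 members that rose still passed upward and 4 of the 7 that fell still passed downward, and the members' median change was 0.089. CDC25A (0.80), CCNE1 (0.83), POLE (0.62), CDT1 (0.52), RFC3 (0.48), RFC5 (0.39), E2F2 (0.39) and GINS4 (-0.87) kept most of their change. PCNA read -0.14 (limma adjusted p = 0.0761) and GMNN 0.073 (adjusted p = 0.293), and POLD2 turned to 0.22 (adjusted p = 0.006). Of the 9 licensing genes that rose, CDT1, CDC45 and DBF4 still passed upward. Of the 21 members that had not passed before, 2 now passed upward and 5 downward. RPA3 rose by 0.35 (adjusted p = 0.00066) and CHAF1B by 0.26 (adjusted p = 0.00969), having neighbours at -0.34 each. ORC6 (-0.21), TK1 (-0.20), LIG1 (-0.20), POLA2 (-0.19) and E2F1 (-0.13) passed downward (limma adjusted p = 0.017, 0.0495, 0.0377, 0.021 and 0.0491). In this setting 19 members were higher and 9 lower, against 24 and 7 in the main fit. Of the 10236 genes it covered 6335 passed. In the main fit 3732 of the 10245 genes above the low mode were higher and 2604 lower.

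**Figure D5:**
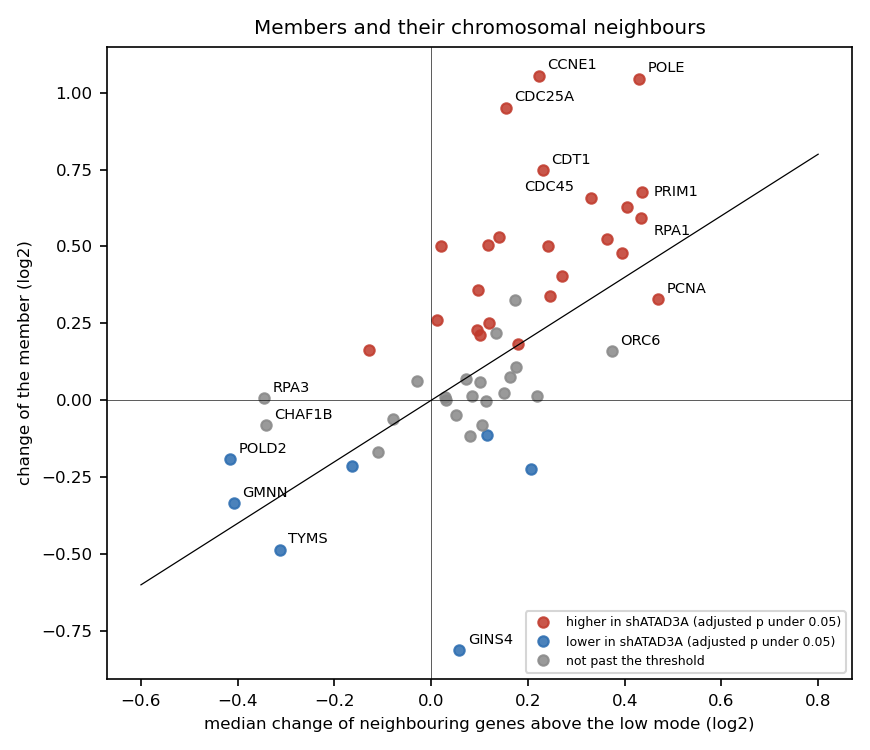
Change of each of the 52 members (vertical axis, log2) against the median change of its neighbouring genes above the low mode (horizontal axis, log2); the line marks equal changes. POLE, CCNE1, CDC25A and CDT1 lie above the line, GINS4 far below it, and PCNA, at 0.33 beside neighbours at 0.47, under it.

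Genes of the same pathway outside the 52 were read from further lists. Of genes above the low mode 61.8% passed, 36.4% higher and 25.4% lower. Of 25 measured origin and fork genes 11 rose and 3 fell, with a median change of 0.14: the helicase relative MCM8 rose by 0.58, DDX11 by 0.56 on a probe set that near-identical copies may share, and CHTF18 of an alternative clamp loader by 0.53, while RNASEH2A of RNase H2 fell by 0.55 on the log2 scale and DONSON by 0.43. The neighbours above the low mode stood at 0.41 for MCM8, 0.45 for DDX11 and 0.25 for CHTF18. Around RNASEH2A and DONSON they stood at -0.46 and -0.36. Of 21 further genes of nucleotide supply 11 rose and 3 fell, with a median of 0.24. The shares that passed were 66.7% of these and 56% of the origin and fork genes. ADA (adenosine deaminase) rose by 1.57, DHODH, the mitochondrial enzyme of pyrimidine synthesis, by 0.95 and IMPDH1 of guanine nucleotide synthesis by 0.91. The mitochondrial thymidine kinase TK2 fell by 0.77, GART of purine synthesis by 0.40 and CMPK1 by 0.19 on the log2 scale. Neighbours above the low mode stood at 0.093 for ADA, 0.098 for DHODH, 0.066 for IMPDH1, 0.30 for TK2 and 0.19 for CMPK1. Those of GART stood at -0.38.

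Further G1/S regulators went both ways, with 6 of 30 higher and 10 lower and a median change of -0.014. CDK4, partner of the D-type cyclins, read 11.77, 11.89 and 11.86 in shATAD3A arrays and 10.87, 10.79 and 10.90 in shGFP arrays, a rise of 0.99 (limma adjusted p = 2.96e-05), and SKP2, which marks CDK inhibitors for destruction, rose by 0.91. CDKN1A, the inhibitor p21, read 8.60, 8.58 and 8.57 in shATAD3A arrays and 10.10, 10.06 and 10.04 in shGFP arrays (change -1.48; adjusted p = 1.739e-06). The cyclins CCND2 and CCND1 changed by -2.71 and -0.78, and MYBL2 rose by 0.54. Neighbours above the low mode stood at 0.44 for CDK4, 0.33 for SKP2 and 0.14 for MYBL2. They stood at -0.38 for CDKN1A, 0.53 for CCND2 and 0.25 for CCND1. Of 12 checkpoint genes 5 rose, led by CDC25B at 0.85, and 1 fell (HUS1, at -0.63). Of 16 further genes of chromatin replication 3 rose and 3 fell (KMT5A at 0.69 and LSM11 of histone messenger processing at -0.45), with a median of -0.034. A list of 20 mitosis genes for comparison had 7 higher and 3 lower and a median of 0.059, with FOXM1 at 0.76 and MKI67 at 0.56, and NDC80 at -0.45. Neighbours above the low mode stood at 0.43 for CDC25B, 0.19 for KMT5A, 0.49 for FOXM1 and 0.11 for MKI67. For HUS1, LSM11 and NDC80 they stood at -0.27, -0.037 and -0.35. The part of these neighbour shifts in the changes of list genes was not tested. The shares that passed were 53.3% of the G1/S regulators, 50% of the checkpoint genes, 37.5% of the chromatin genes and 50% of the mitosis genes. Each is below the 61.8% of genes above the low mode. These are counts, shares and medians, and no difference between lists was tested.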

How the data were processed

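RNA of 6 samples was profiled on Affymetrix U133 Plus 2.0 arrays from 250 ng total RNA, per the labels' protocols. The authors deposited log2 expression values per probe set. The scale was read from their range, since the sources used here do not state how probes were summarised or normalized. Per the submitters' processing notes the software was Partek (version not stated). Of 54675 probe sets, the platform annotation of 2016 gave 41091 exactly 1 gene symbol, 1801 more than 1 and 11721 none, and 62 were controls. Symbols were checked by Entrez ID against the GRCh38.p14 table, which updated 0 and lacked 54. Array medians lay between 3.16 and 3.23.

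Groups were compared over all genes in R 4.3.3 by limma 3.58.1 (two-sided lmFit and eBayes without covariates or filter). Genes with a Benjamini-Hochberg adjusted p under 0.05 passed. The members, lists and tests were chosen with earlier results of these data known. The boundary of the low mode, 4.70, is the lowest density of gene means, chosen after seeing the data. Partner pairs were tested with an exact permutation test (scipy 1.17.1). The fit was tested on simulated data. Values on every array are given for the 4 largest rises and falls of the larger roles, up to 2 with the smallest change, and all members of the smaller roles; genes given beyond these were chosen after their values were seen. From further lists up to 3 of the largest rises and falls were named. Promoters are from RefSeq. Alternatives covered normalization, dim genes, choice of probe set, variance prior, array weights, thresholds, a replicate block, neighbours and leaving out each array. 0 columns of the table were unmatched, and the closest arrays shared 0.0165% of their values. The labels do not say what a shared replicate number marks, so the main fit had no block. Same-numbered arrays deviated with correlations of -0.24, -0.16 and 0.047, and arrays of unlike numbers with -0.12 to 0.25.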

Additional observations from a re-analysis of the deposited data

How the results depend on the processing

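Over 19 other settings 860 of 977 member values kept direction and side of the threshold, 55 no longer passed, 21 newly passed and 41 changed sign, 4 of these in members that had passed. Of the 31 calls 13 held in every setting and 29 in every one that left out an array (not RFC1 and RRM2). The members' median change of 0.16 became 0.13 with array weights and 0.089 with the neighbour median of genes above the low mode removed (added after the data had been seen). It was 0.11 without s_at and x_at probe sets, over the 41 members that still had a value (not CDT1, POLE, CDC45, DBF4, GMNN, FEN1, MCM2, MCM7, ORC6, RRM1 and SLBP). In that setting ATAD3A had no value, GINS2 read -0.010, and CHAF1A (0.011; adjusted p = 0.895), MCM5 (0.19; 0.0789) and RFC1 (-0.022; 0.807) no longer passed. Leaving out 1 array gave medians of 0.14 to 0.18, 5845 to 6457 genes passing in place of 6644, 23 to 24 members higher and 6 to 7 lower. At an adjusted p of 0.01, 5057 genes passed, 20 members were higher and 3 lower, and ATAD3A, at -0.49, did not pass (0.0129). With limma's treat against 1.2-fold 3408 genes passed, 14 members were higher and 1 lower, and ATAD3A, at -0.49, did not pass (0.172).

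With neighbours above the low mode removed the sign turned in members that had passed for GMNN (0.073), PCNA (-0.14) and POLD2 (0.22), and in others for ORC6 (-0.21), TK1 (-0.20), E2F1 (-0.13), CHAF1B (0.26), MCM6 (-0.087), FEN1 (-0.070), RFC2 (-0.067), POLD1 (-0.043), MCM7 (-0.029), SLBP (-0.018), POLA1 (0.018) and MCM4 (-0.0034). With all neighbours removed it turned for E2F1 (-0.013) and CHAF1B (0.027). Members with changes near 0 also changed sign under quantile normalization (MCM7 -0.011, RPA3 -0.020, FEN1 -0.0057, E2F1 -0.0023, SLBP -0.012), with arrays centred on medians (RRM1 0.0032) and with the mean of all probe sets (FEN1 -0.063, RRM1 0.060). Leaving out 1 array gave -0.12 to 0.019 for CCNE2, -0.036 to 0.039 for MCM7, -0.12 to 0.0079 for POLA1, -0.021 to 0.030 for RPA3, -0.016 to 0.015 for RRM1, -0.015 to 0.032 for SLBP and -0.064 to 0.062 for TK1. With replicate number as a block 6057 genes passed, 22 members higher and 5 lower, though same-numbered arrays did not deviate together (correlations -0.24, -0.16 and 0.047). The cause of these shifts was not tested in any setting. Dim signal limits what the further probe sets in the low mode can show.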
